A study of Danio rerio with 6 samples.

Results

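The probes described here carry the genes of the extracellular matrix and of the proteins that bind or cut it: collagens, laminins, nidogen, fibronectin, fibulins, tenascin, thrombospondin, matrilin, sparc and testican genes, actinodins, integrins, matrix metalloproteinases and their tissue inhibitors. They were picked by gene symbol in the platform's probe annotation, a rule that uses no measured value but was drawn up with earlier results of these data known. The rule matched 56 of the 6153 annotated probes. Of these, 55 carried a single symbol and stood for 48 genes, and the other one carried 2 symbols and is not named. The tests cover 53 of the 55 probes and 46 genes, among 15616 probes tested in all. The col5a2a probe lay in a print block of the array that had been misread on wild-type array 2. The lamc1 probe exceeded the blank spots on only 1 array.

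The matrix is the meshwork that cells secrete around themselves. Fibrillar collagens give connective tissue its tensile strength, laminins and nidogens build the basement membrane beneath an epithelium, and integrins are the paired transmembrane receptors by which cells hold on to both. Metalloproteinases cut these proteins, and tissue inhibitors of metalloproteinases restrain them. In the olfactory organ the sensory epithelium, with its neurons and supporting cells, rests on a basement membrane above a collagen-rich stroma that also holds vessels and white blood cells.

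Olfactory rosettes, the paired nasal organs, were dissected from adult zebrafish (Danio rerio) aged 1 to 2 years, of mixed sex and untreated. The wild-type group holds 3 samples from siblings of the mutants. The mutant group holds 3 samples from homozygous Rag1 mutants. Both of their copies of this gene, which starts the rearrangement of antigen receptor genes, are changed. Zebrafish without rag1 function are known to lack mature T and B cells. Each sample was read on its own 1-colour array. How many fish gave a sample is not stated, so p-values reflect only how far these samples differ from each other, and that spread could be technical. The labels of mutant array 2 conflict: its source name says wild type, its title and strain say mutant, and it was treated as a mutant.

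The median gene spot was 4.84 to 7.37 times as bright as the blank spots, and 96.67% to 99.52% of probes exceeded the blank spots on each array. With 3 arrays per group, their number limits the precision. The rag1 probe read 6.46 to 6.75 on 5 arrays, near the blank spots, and 11.92 on mutant array 3, from a spot with uneven pixels. Its difference of 1.85 (SE 1.25, limma adjusted p = 0.475) was 0.11 without that array, so it checks no label. Of 11 olfactory neuron markers, 6 were measured and all 6 exceeded the blank spots on every array, and 4 of them fell in the mutants, with a median log2 difference of -0.90. Markers of macrophages (4 of 6 rose, median 1.01) and neutrophils (4 of 7 rose, median 1.39) were higher in the mutants. The risen genes of the macrophage list were spi1b, csf1ra, mpeg1.1 and lcp1. Whether each listed gene marks only that cell type in this organ was not tested. On mutant array 2 the mean levels of the neuron, macrophage and neutrophil markers were 10.66, 11.75 and 10.75. Each lay outside the wild-type range (11.30 to 11.46, 10.76 to 11.25 and 9.60 to 9.80) and on the side of the other mutants. The lysozyme gene lyz, a neutrophil marker, read 12.69 there and 10.26 to 10.28 in wild type. The marker lists, lyz included, were chosen with earlier results of these data known. Their levels are therefore no independent check of the label of mutant array 2. Across all probes this array correlated with the other mutants at 0.983 or above and with no wild-type array above 0.973. All levels below are normalised intensities on the log2 scale, and all differences are mutant minus wild type on that scale. In a whole organ, fewer cells of a type and less RNA per cell cannot be told apart.

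In the matrix set 3 probes changed. A single one rose, for the actinodin gene and1, and 2 fell, for the testican gene spock3 and for the collagen XIV gene col14a1a at 1 of its 3 probes (limma, Benjamini-Hochberg adjustment over all 15616 probes, threshold 0.05). These are 5.66% of the 53 probes tested, where 4.87% of all probes tested passed (2.46% higher and 2.41% lower), so the share lies near the background. An unadjusted p under 0.05 (limma) was found in 11 of the 53 probes. It was common on the array: over all 15616 probes tested, a limma p of 0.0509 held rank 3322. Counts at that level below are a description. Leaving out wild-type array 2, wild-type array 3 or mutant array 1 left 1 call, and leaving out mutant array 2 or 3 left 0. Without wild-type array 1 there were 3 calls, and1, spock3 and the integrin gene itga6b, while col14a1a was lost (limma adjusted p = 0.0683). With the replicate number as a block there were 6 calls. Over all probes tested, 1.68% to 3.9% passed without 1 array and 7.84% with the block. Calls were thus lost or gained across the whole array, and not only in the matrix set. The plot of differences by class shows the 3 called probes as filled points.

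**Figure D1:**
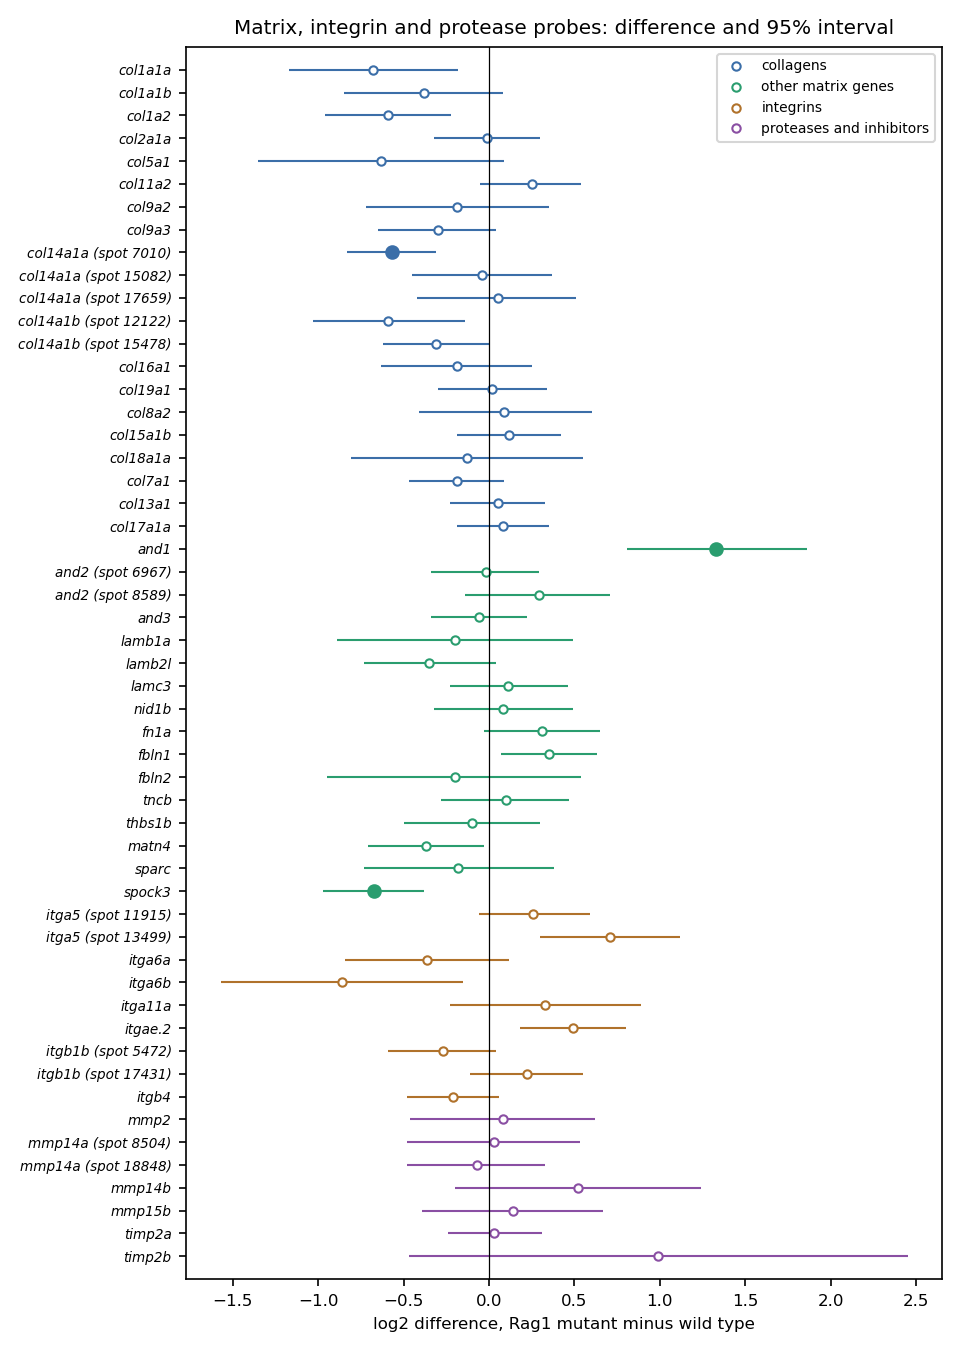
Log2 difference (mutant minus wild type) of the 53 tested probes, 1 row per probe, coloured by class, with bars for the 95% confidence interval of limma's fit on 3 arrays per group. Filled points passed the adjusted threshold: and1 at 1.33, spock3 at -0.67 and col14a1a (spot 7010) at -0.57.

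Actinodins are fish proteins of the actinotrichia, the stiff fibres at the edge of developing and regenerating fins. Given in the order of arrays 1 to 3, as for all readings below, the and1 probe read 7.79, 7.17 and 7.93 in wild type and 8.70, 9.18 and 9.02 in the mutants. Every mutant reading lay above every wild-type reading, and all 6 lay above the blank spots, whose 95th percentile was 6.20 to 6.32. The rise was 1.33 (SE 0.23, n = 3 per group), which is 2.52-fold (95% interval on the log2 scale 0.81 to 1.86, limma adjusted p = 0.0199). Its adjusted p was 0.0564 without mutant array 2 and 0.0706 without mutant array 3.

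The other actinodins were not called. and2 differed by -0.02 at spot 6967 and by 0.29 at spot 8589 (limma adjusted p = 0.953 and 0.438), and and3 differed by -0.06 (limma adjusted p = 0.845). Their intervals ended at 0.29, 0.71 and 0.22, each below the lower end of the and1 interval, though a difference between the genes was not tested. In the same order these probes were dim, at 6.70 to 7.01, 6.92 to 7.54 and 6.96 to 7.16. A change in such probes may not be visible. The and1 probe was not much brighter in wild type, at 7.17 to 7.93. The size of its rise depended on the background step, at 1.04 without correction against 1.33 with it. Of 12 markers of bone and cartilage, 3 were measured and none was called (limma, 1 at an unadjusted p under 0.05). Their mean level was 7.99 to 8.10 in wild type and 8.11 to 8.55 in the mutants. Most of that shift lay in the link protein gene hapln1a (0.56, SE 0.22, limma adjusted p = 0.189), while spp1 (0.21) and sox9a (0.02) read close to the blank spots, at 6.41 to 7.01. The part of these markers in the and1 result was not tested.

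Testican-3, the product of spock3, is in mammals a calcium-binding proteoglycan found mostly in the nervous system. The spock3 probe read 11.73, 11.95 and 11.96 in wild type and 11.16, 11.28 and 11.18 in the mutants, and the groups did not overlap. It fell by 0.67 on the log2 scale (SE 0.13, n = 3 per group), or 1.59-fold, with a 95% interval of -0.97 to -0.38 (limma adjusted p = 0.0275). The call was lost without wild-type array 2 or 3 or any single mutant array, with limma adjusted p-values of 0.0558 to 0.1. The mean level of the 6 olfactory neuron markers moved the same way, from 11.30 to 11.46 in wild type to 10.56 to 10.66 in the mutants, and their part in the fall of spock3 was not tested. In assembly GRCz12tu spock3 lies beside tll1, which encodes a tolloid-like protease of matrix proteins, and the tll1 probe differed by 0.04 (limma adjusted p = 0.946).

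**Figure D2:**
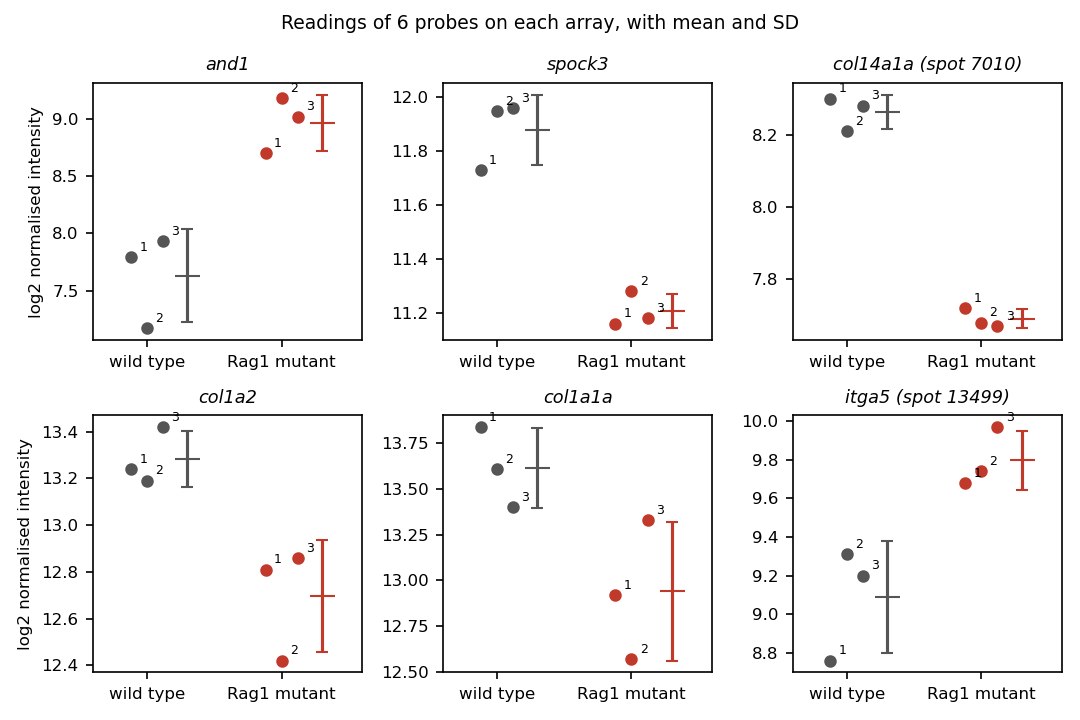
Log2 normalised intensity of 6 probes on each array, with the array number beside each point and the group mean and SD (n = 3) to its right. The groups do not overlap for any of the 6, and and1, spock3 and col14a1a (spot 7010) passed the adjusted threshold. The 6 were picked with the results known, and for col14a1a and itga5 the spot with the lowest adjusted p is shown. Their separation therefore follows from that choice. Over all probes tested, 25.8% had groups that did not overlap. The vertical axes differ and do not start at 0.

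Collagens had 21 tested probes for 18 genes. By the brightest probe of each gene, 12 genes lay below 0 and 6 above, with a median difference of -0.19, against 0.007 over all probes tested. Without wild-type array 3 the median was -0.11. Only the col14a1a probe named above passed the test. The 3 mutant arrays lay below the 3 wild-type arrays in 8 of the 21 probes (38.1%), where 12.8% of all probes tested did so. They lay above in 1 probe (4.76%), that of col11a2, against 13% of all probes tested. The probes share arrays and, for some genes, a target, so these shares are a description.

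Collagen XIV is a fibril-associated collagen that decorates the surface of collagen I fibrils. At spot 7010 col14a1a read 8.30, 8.21 and 8.28 in wild type and 7.72, 7.68 and 7.67 in the mutants. The spread within each group was small (SD 0.05 and 0.02) and the groups lay well apart. The fall was 0.57 on the log2 scale (SE 0.11, n = 3 per group, difference -0.57, limma adjusted p = 0.0333), or 1.49-fold. Leaving out any single array ended the call (limma adjusted p = 0.0683 to 0.1), as did median scaling (0.0525) and the authors' table (0.0703).

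The other probes of col14a1a did not show this difference. Spot 15082 read 7.28, 7.41 and 7.59 in wild type against 7.15, 7.30 and 7.71 in the mutants, a difference of -0.04 (95% interval -0.45 to 0.37, limma adjusted p = 0.943). Spot 17659 read 6.36, 6.39 and 6.71 against 6.16, 6.59 and 6.84 and exceeded the blank spots on 5 arrays. Its difference was 0.05 (limma adjusted p = 0.94). The change in col14a1a therefore rests on 1 of 3 probes, and why they disagree was not tested.

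The paralogue col14a1b had 2 probes, and both were lower in every mutant array than in any wild-type array. The brighter one, spot 12122, read 10.74, 10.15 and 10.28 in wild type and 9.98, 9.57 and 9.85 in the mutants, a difference of -0.59 (SE 0.19). It did not pass (limma adjusted p = 0.127), but did with the replicate number as a block (0.0477). Spot 15478 had a difference of -0.31 (SE 0.13, limma adjusted p = 0.239).

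Collagen I, the main collagen of connective tissue, is built from the chains of col1a1a, col1a1b and col1a2. col1a2 read 13.24, 13.19 and 13.42 in wild type and 12.81, 12.42 and 12.86 in the mutants, with no overlap. Its difference was -0.59 (SE 0.16, 95% interval -0.96 to -0.22, limma adjusted p = 0.0808), and with the replicate number as a block its adjusted p was 0.0481. col1a1a read 13.84, 13.61 and 13.40 against 12.92, 12.57 and 13.33, also without overlap, with a difference of -0.68 (SE 0.21, limma adjusted p = 0.118). col1a1b read 9.43, 9.59 and 9.82 against 8.94, 9.12 and 9.62, where the groups overlapped and the difference was -0.38 (SE 0.20, limma adjusted p = 0.334). The differences of all 3 chain genes were thus below 0 but none passed the test.

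Collagen V nucleates collagen I fibrils. col5a1 read 11.53, 11.43 and 11.48 in wild type and 11.35, 10.05 and 11.13 in the mutants, so that most of its difference of -0.63 (SE 0.31, limma adjusted p = 0.301) came from mutant array 2. Without that array it was -0.24. The other chain on the array, col5a2a, was not tested. With the misread block kept, it read 10.31 and 10.27 on wild-type arrays 1 and 3 and 9.39, 10.33 and 10.14 on the mutant arrays, so these 5 readings overlap. The cartilage collagens did not share a direction. col11a2 differed by 0.25 (SE 0.13) and col2a1a by -0.01 (SE 0.13), with limma adjusted p-values of 0.323 and 0.977, and both read close to the blank spots, at 6.38 to 6.86. The collagen IX genes col9a3, as dim and lower in every mutant array, and col9a2 differed by -0.30 (SE 0.15) and -0.19 (SE 0.23), with limma adjusted p-values of 0.301 and 0.731.

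The 6 fibrillar genes tested had a median difference of -0.49, which was -0.28 without mutant array 2. By array, their median relative to the wild-type mean was 0.01, -0.06 and 0.06 in wild type and -0.30, -0.68 and -0.21 in the mutants. The 6 fibril-associated genes had a median of -0.25. The other 6 collagen genes had a median of 0.06: the multiplexins col15a1b and col18a1a, the network former col8a2, the anchoring-fibril gene col7a1, and col13a1 and col17a1a, whose products span the cell membrane. Outside the 6 collagen genes with the largest differences, the other 12 lay between -0.30 and 0.25 with limma adjusted p-values of 0.301 to 0.977. These 12 include col11a2, col2a1a, col9a3 and col9a2 and the multiplexin, network, anchoring-fibril and membrane collagen genes above. Of these, col9a2 and col16a1 are neighbours in assembly GRCz12tu, and both differed by -0.19.

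Of 16 fibroblast markers outside the matrix set, 6 were measured, none was called (limma, 3 at an unadjusted p under 0.05), 5 lay above 0 and their median was 0.37. Their mean level was 9.16 to 9.22 in wild type and 9.38 to 9.75 in the mutants, without overlap, and their part in the collagen values was not tested. All 6 exceeded the blank spots on every array. They included the small proteoglycan gene dcn (0.84, SE 0.29, limma adjusted p = 0.151), the transcription factor gene twist1a (0.59, SE 0.16, 0.0882) and the platelet-derived growth factor receptor gene pdgfra (-0.02, SE 0.20, 0.971).

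Few genes that process collagen in the secretory pathway could be found by symbol, and only 6153 probes were annotated. Of 23 listed, 3 were measured and none was called by limma, while 1 had an unadjusted p under 0.05. p4hb, which encodes protein disulfide isomerase, the beta subunit of the enzyme that hydroxylates prolines of collagen, had the largest difference of this list. It read 11.18, 10.53 and 10.18 in wild type and 8.27, 8.08 and 9.98 in the mutants, a difference of -1.85 (SE 0.50, limma adjusted p = 0.0785). The collagen chaperone gene serpinh1b read 10.34 on wild-type array 1 and 8.23 to 9.19 on the other 5, a difference of -0.15 (SE 0.51, limma adjusted p = 0.919). crtap, which takes part in prolyl 3-hydroxylation, differed by 0.22 (SE 0.15, limma adjusted p = 0.464).

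**Figure D3:**
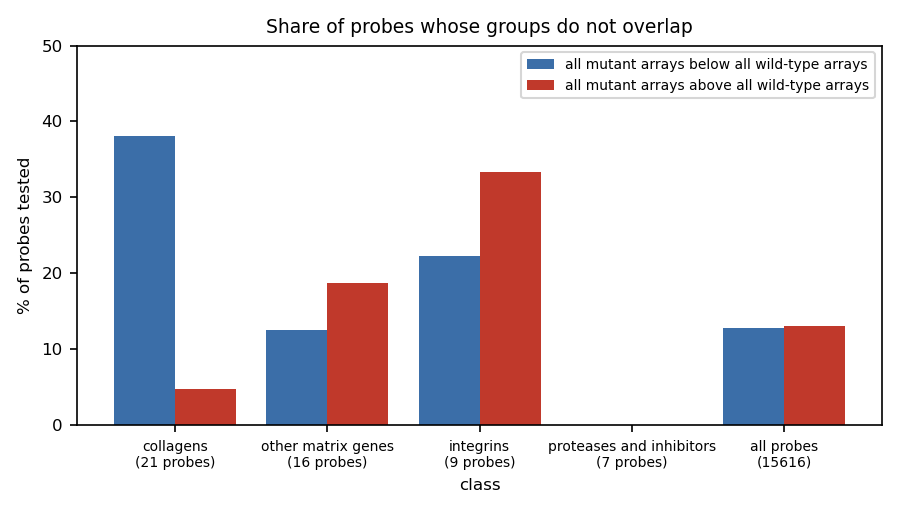
Percentage of tested probes in each class, and of all probes tested, whose 3 mutant arrays all lay below (blue) or all above (red) the 3 wild-type arrays. Collagens stood at 38.1% below and 4.76% above, all probes at 12.8% and 13%.

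Other matrix genes had 16 tested probes for 15 genes, of which 1 rose (and1) and 1 fell (spock3). Their median difference was -0.06, or 0.13 without mutant array 2. The groups did not overlap in 5 of the 16 probes (31.2%), against 25.8% of all probes tested. fbln1, which encodes a fibulin of elastic fibres and basement membranes, read 6.92, 7.05 and 7.10 in wild type and 7.44, 7.30 and 7.37 in the mutants. Its difference was 0.35 (SE 0.12, limma adjusted p = 0.152), without overlap. The fibronectin gene fn1a, whose product is the main ligand of the integrin that contains alpha 5, read 6.55, 6.79 and 6.77 against 6.95, 6.87 and 7.22, a difference of 0.31 (SE 0.15, limma adjusted p = 0.287). Both probes were dim, and neither passed.

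matn4, which encodes a matrilin, a filament-forming adaptor of the matrix, read 7.61, 7.46 and 7.35 in wild type and 7.31, 6.99 and 7.00 in the mutants. Every mutant reading lay below every wild-type reading, and the difference of -0.37 (SE 0.15) did not pass (limma adjusted p = 0.196). The laminin beta gene lamb2l read 10.22, 9.73 and 10.11 against 9.83, 9.55 and 9.63, a difference of -0.35 (SE 0.16, limma adjusted p = 0.288). The groups overlapped there. The 4 tested basement membrane genes (lamb1a, lamb2l, lamc3 and nid1b) had a median of -0.06, and in none of them did the groups separate. The 9 remaining other-matrix genes outside the named ones had probes between -0.20 and 0.29 with limma adjusted p-values of 0.438 to 0.953. Among them are sparc, for a collagen-binding glycoprotein, and tncb, for a tenascin.

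Integrins had 9 tested probes for 7 genes, none of them called by limma, while 3 probes had an unadjusted p under 0.05. Their median difference was 0.22, and 0.13 without wild-type array 1. Across these probes the mutant arrays lay wholly above wild type in 3 and wholly below in 2, or 55.6% together, against 25.8% of all probes tested. Alpha 5 pairs with beta 1 as the fibronectin receptor. Its gene itga5 had 2 probes, both higher in every mutant array. Spot 13499 read 8.76, 9.31 and 9.20 in wild type and 9.68, 9.74 and 9.97 in the mutants, a difference of 0.71 (SE 0.18, 95% interval 0.30 to 1.12, limma adjusted p = 0.0651). With the replicate number as a block its adjusted p was 0.0405. Spot 11915 read 11.93, 11.61 and 11.96 against 12.02, 12.07 and 12.20, a smaller difference of 0.26 (SE 0.14, limma adjusted p = 0.347). The pixels of spot 13499, the dimmer one, were less even. Their SD was 0.431 to 0.63 of their mean, against 0.212 to 0.299 at spot 11915.

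Alpha E pairs with beta 7 and is known in mammals from T cells and dendritic cells that sit in epithelia. The gene itgae.2, a zebrafish alpha E copy, read 11.14, 10.94 and 11.23 in wild type and 11.68, 11.61 and 11.49 in the mutants. The groups did not overlap, and the difference of 0.49 (SE 0.13, 95% interval 0.18 to 0.80) did not pass (limma adjusted p = 0.0804). Macrophage markers moved the same way (6 of 17 listed genes measured). Their mean level was 10.76 to 11.25 in wild type and 11.75 to 12.11 in the mutants. The mean levels of the neutrophil and fibroblast markers also rose without overlap. Those of the 3 bone and cartilage markers barely separated, with a highest wild-type mean of 8.10 and a lowest mutant mean of 8.11. Most of their shift lay in hapln1a. The part of any of these lists in the itgae.2 and itga5 values was not tested.

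Alpha 6 forms laminin receptors with beta 1 or beta 4. Its copy itga6b read 11.65, 12.92 and 12.64 in wild type and 11.37, 11.58 and 11.69 in the mutants, a difference of -0.86 (SE 0.31, limma adjusted p = 0.16). Wild-type array 1 read within the range of the mutants, and without it the difference was -1.24 and passed (limma adjusted p = 0.0169). Without any other single array it did not pass, with differences of -0.60 to -0.93 and limma adjusted p-values of 0.256 to 0.36. The other copy, itga6a, read 9.41, 9.29 and 9.01 against 9.27, 8.80 and 8.55, a difference of -0.36 (SE 0.21, limma adjusted p = 0.382). itgb4, the hemidesmosome partner of alpha 6, differed by -0.21 (SE 0.12, limma adjusted p = 0.365) close to the blank spots, at 6.64 to 6.70 in wild type and 6.39 to 6.55 in the mutants.

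The 2 probes of itgb1b, a beta 1 gene, disagreed in sign. Spot 5472 differed by -0.27 (SE 0.14, limma adjusted p = 0.309) and spot 17431 by 0.22 (SE 0.14, limma adjusted p = 0.452), and both intervals include 0. A further copy, itgb1b.2, lies beside this gene in assembly GRCz12tu, and which copy each probe detects was not tested. The collagen-binding alpha 11 gene itga11a read 9.42, 8.47 and 8.66 in wild type and 9.31, 9.18 and 9.05 in the mutants (difference 0.33, SE 0.24, limma adjusted p = 0.509). The difference was 0.62 without wild-type array 1 and 0.14 without wild-type array 2. Inside the cell, 11 of 32 listed genes of focal adhesions and integrin signalling were measured and none was called (limma, 0 at an unadjusted p under 0.05), with a median of 0.03. The largest difference of that list was that of the actin cross-linker gene actn1 (0.40, SE 0.24, limma adjusted p = 0.419).

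Proteases and inhibitors had 7 tested probes for 6 genes. None was called, none had groups that did not overlap (against 25.8% of all probes tested), and no unadjusted p lay below 0.134. Their median difference was 0.11, but 0.29 without mutant array 2 and 0.02 without mutant array 1. The membrane-bound metalloproteinase MMP14, together with the inhibitor TIMP2, is known to activate the gelatinase MMP2 at the cell surface, and all 3 genes were on the array.

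mmp14b read 12.02, 12.08 and 12.37 in wild type and 12.80, 11.95 and 13.29 in the mutants, a difference of 0.52 (SE 0.31, 95% interval -0.20 to 1.24, limma adjusted p = 0.405). It was 0.89 without mutant array 2 and 0.22 without mutant array 3, and passed in neither case. timp2b read 8.83, 8.44 and 8.69 in wild type and 9.65, 8.16 and 11.12 in the mutants. Mutant array 2 was the lowest of all 6 for timp2b and mutant array 3 the highest, while the pixels of these spots were even. The SD was 0.20 in wild type and 1.48 in the mutants, and the difference of 0.99 (SE 0.63, 95% interval -0.47 to 2.45) did not pass (limma adjusted p = 0.437). It was 1.73 without mutant array 2 and 0.26 without mutant array 3, again without passing. mmp2 read 12.84, 12.64 and 12.91 against 13.01, 12.36 and 13.28, a difference of 0.08 (SE 0.23, limma adjusted p = 0.892), and ranged from -0.12 without mutant array 3 to 0.35 without mutant array 2. The mmp14b, timp2b and mmp2 probes had the same order among the mutants, with array 2 lowest and array 3 highest. mmp14a had it at spot 8504 (9.73, 9.31 and 10.05) but not at the brighter spot 18848 (11.71, 11.16 and 11.68). Neither mmp15b (10.59, 10.11 and 10.17) nor timp2a, close to the blank spots (6.37, 6.38 and 6.21), had it. The neutrophil markers also had array 2 lowest and array 3 highest, with mean levels of 11.47, 10.75 and 11.81 on mutant arrays 1 to 3. So did those of macrophages (12.09, 11.75 and 12.11), fibroblasts (9.53, 9.38 and 9.75) and bone and cartilage (8.24, 8.11 and 8.55). The skeletal muscle markers did too, at 8.17, 8.15 and 8.23, within their wild-type range of 7.90 to 8.33. Some of these gaps were very small. The markers of endothelium, surface epithelium and olfactory neurons did not have this order. The part of any of these lists in the protease and inhibitor values was not tested.

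The remaining proteases differed little in their means. mmp14a had differences of 0.03 at spot 8504 and -0.07 at spot 18848 (SE 0.22 and 0.18), mmp15b one of 0.14 (SE 0.23) and timp2a, close to the blank spots, one of 0.03 (SE 0.12). Their limma adjusted p-values ran from 0.799 to 0.972. The intervals were wide enough for mmp15b to allow differences of -0.39 to 0.67. Of 31 other matrix proteases and inhibitors listed, 8 were measured, none was called (limma, 0 at an unadjusted p under 0.05) and the median was 0.00. The largest difference was that of the cathepsin K gene ctsk, for a collagen-degrading lysosomal protease (0.89, SE 0.39, limma adjusted p = 0.241).

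Proteoglycan and hyaluronan genes, the other large part of the matrix, were likewise without a call. Of 32 listed, 12 were measured, 8 lay above 0 and 4 below, with a median of 0.13. An unadjusted p under 0.05 in limma, common over all probes tested, was found in 5. These pointed both ways, with dcn, hapln1a and hapln1b above 0 and agrn and bgnb below. The link protein gene hapln1b, whose product joins hyaluronan to proteoglycans, had the largest difference. It read 9.71, 9.61 and 9.73 in wild type and 10.89, 9.69 and 11.25 in the mutants (0.93, SE 0.36, limma adjusted p = 0.19), again with mutant array 2 lowest among the mutants. Of 26 other glycoproteins listed, 4 were measured and none was called (limma, 2 at an unadjusted p under 0.05). The largest difference was that of tgfbi, for a collagen- and integrin-binding protein (0.59, SE 0.20, limma adjusted p = 0.137), at 12.13 to 12.31 in wild type and 12.35 to 13.04 in the mutants, without overlap.

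Mutant array 2 often read lower than the other mutants in the matrix set, though not in every class. It held the lowest of the 6 readings in 23 of the 53 probes (43.4%), where it did so in 13.4% of all probes tested, and the lowest of the 3 mutant readings in 32 probes (60.4%), against 31.2% of all probes tested. By class it was lowest of the 6 in 8 of 21 collagen probes, 8 of 16 other matrix probes, 2 of 9 integrin probes and 5 of 7 protease and inhibitor probes. It was lowest of the 3 mutants in 47.6% of collagen probes, 81.2% of other matrix and 85.7% of protease and inhibitor probes. In integrin probes (33.3%) that share was near the 31.2% of all probes tested, and in fibril-associated collagen probes (22.2%) it was lower. lamb1a read 12.87, 11.71 and 12.54 on the mutant arrays, fbln2 10.76, 10.18 and 11.26, and sparc 13.66, 12.71 and 13.21, 3 bright probes chosen after their values were seen. The heat map by array shows mutant array 2 as a column of lower readings for many of the genes.

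**Figure D4:**
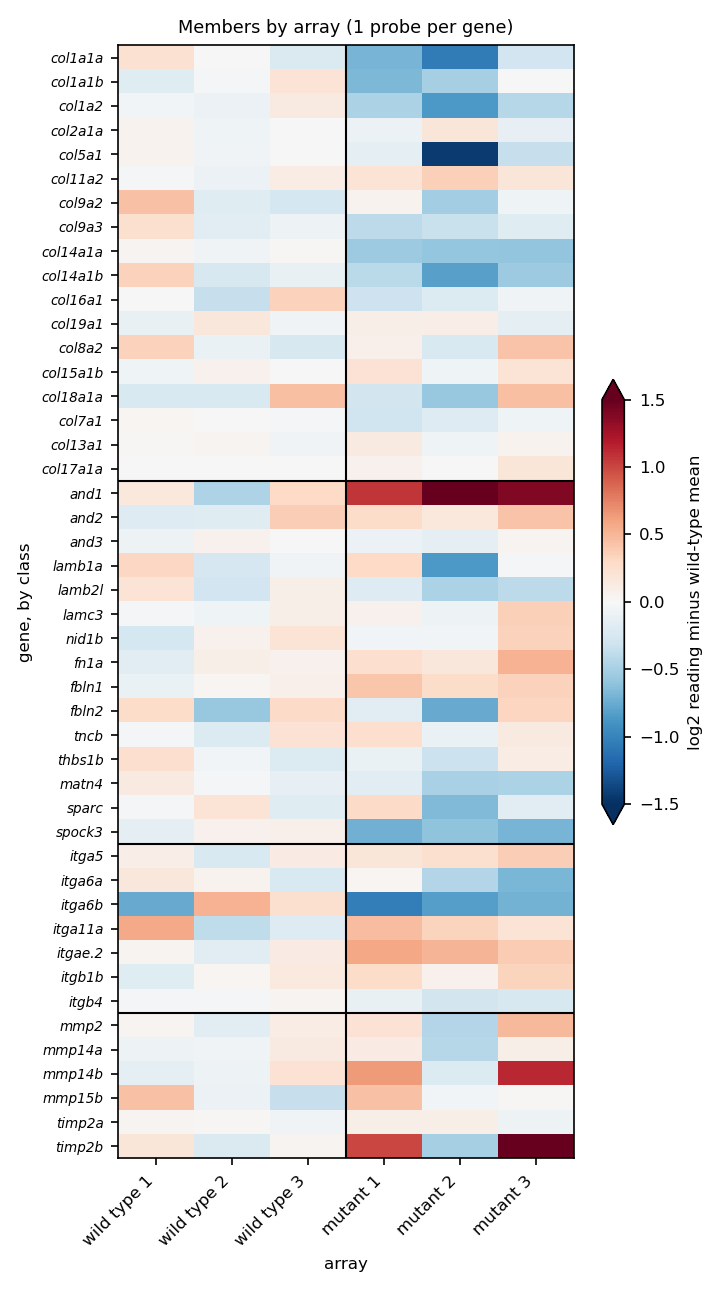
Log2 reading of the brightest probe of each of the 46 tested genes minus that gene's mean over the 3 wild-type arrays, by array (columns) and by class (rows, separated by lines: collagens, other matrix genes, integrins, proteases and inhibitors). and1 is high on all 3 mutant arrays, col1a1a and col1a2 are low on them, and mutant array 2 is low for col5a1, lamb1a, fbln2, sparc and timp2b.

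Dim probes limit the comparison. Of the 53 probes, 12 (22.6%) read within 1 log2 unit of the blank spots' 95th percentile on all 6 arrays, against 13.7% of all probes tested, and a change in such a gene may not be visible here. The plot of adjusted p-values by setting shows how close the 3 calls lie to the threshold.

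**Figure D5:**
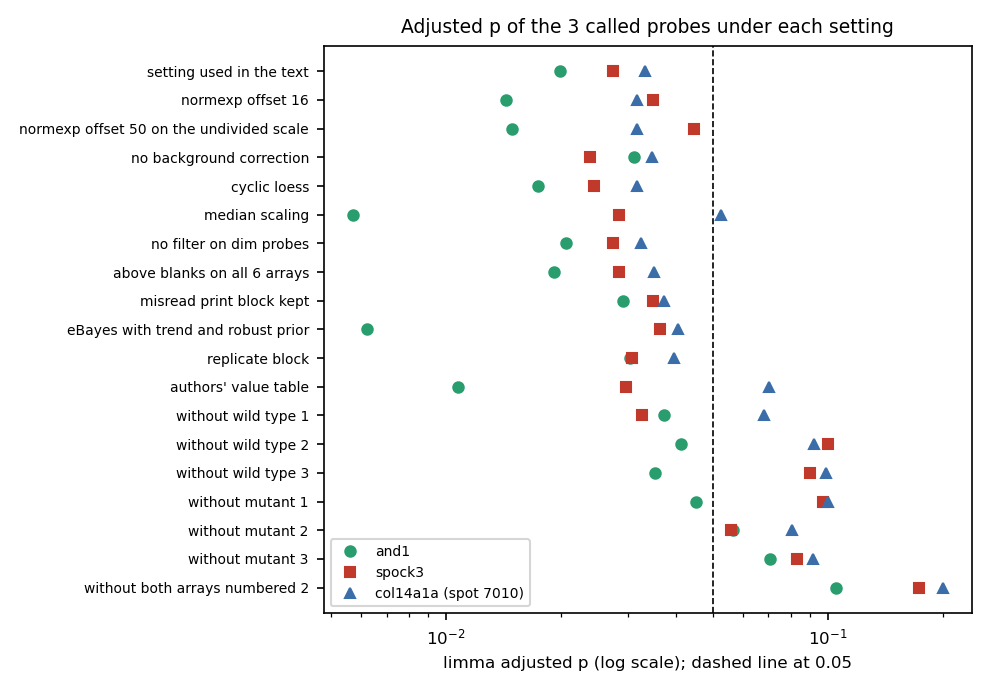
Limma adjusted p (log axis) of the 3 called probes under the setting used and 18 alternatives, with a dashed line at 0.05. and1 stayed below 0.05 in 15 of the 18 alternatives, spock3 in 12 and col14a1a (spot 7010) in 9.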

How the data were processed

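The deposited scanner tables hold 1 raw intensity and 1 local background per spot, with the SD of a spot's pixels, per the file headers. The values show a ceiling of 6553500, which is 100 times 65535, so intensities were divided by 100. Ratios of each probe to its median over the arrays, as the authors' deposited table gives them, served only as an alternative. The scanner, its software and a genome build were not stated in these sources.

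In 1 print block of wild-type replicate 2 the correlation with the other arrays was 0.241 at its own position and 0.981 at the next row of spots, against at least 0.945 in the rest of 288 blocks (48 on each of 6 arrays). Its 400 spots were left out. Background was corrected with normexp (offset 50) in limma 3.58.1 (R 4.3.3), arrays were quantile normalised, 172 actin spots were averaged and blank and bacterial spots dropped. Of 15885 probes, 15616 exceeded the 95th percentile of the blank spots on all 3 arrays of a group and were fitted with lmFit and eBayes, mutant against wild type, 2-sided, with Benjamini-Hochberg adjustment.

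Symbols came from the platform annotation, and none of the members' symbols changed when updated to assembly GRCz12tu. A symbol without a match was kept, and col14a1b and nid1b were not found among the placed protein-coding genes of that assembly. Called probes, the 6 genes of each class with the largest differences and the largest difference of each related list are named, and others only where the text turns on them. The members and gene lists were chosen with earlier results of these data known. The titles of both groups spell out only the number 2, and the other numbers follow the listed order. Arrays of the same number deviated together across probes (correlations of 0.32, 0.22 and 0.28 for numbers 1 to 3, at most -0.07 otherwise). Deviations from a group's mean cancel out over its arrays, so positive values bring negative ones elsewhere and the contrast is partly built in. Because of the positive values, the replicate block is given where it changes a call.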

Additional observations from a re-analysis of the deposited data

How the results depend on the processing

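The count of 3 called matrix probes was 2 under median scaling and in the authors' table, 6 with the replicate block, and 3 under the other settings that keep all 6 arrays. Leaving out 1 array gave 0 to 3, and leaving out both arrays numbered 2, an alternative chosen after seeing the data, gave 0 (limma). The block added col1a2 (-0.59), col14a1b at spot 12122 (-0.59) and itga5 at spot 13499 (0.71), ended no call, and changed no other call. Over all probes tested, 761 passed, 1225 with the block, 263 to 613 without 1 array and 107 without both numbered 2. The class medians ranged over arrays left out 1 at a time from -0.26 to -0.11 for collagens, -0.11 to 0.13 for other matrix genes, 0.13 to 0.28 for integrins and 0.02 to 0.29 for proteases and inhibitors, so other matrix genes changed sign. Without both arrays numbered 2 the medians were 0.10 for other matrix genes and 0.14 for integrins. and1 lay between 0.99 and 1.62, spock3 between -0.75 and -0.63 and col14a1a at spot 7010 between -0.71 and -0.43 over the 18 alternatives. Leaving out 1 array at a time also moved uncalled differences by over 1.5 times, relative to their values with all 6 arrays. Among them were col1a1b (-0.58 to -0.24), fn1a (0.20 to 0.38), itga5 at spot 11915 (0.15 to 0.33), itga6a (-0.56 to -0.20) and itgb1b at spot 17431 (0.13 to 0.30). By that measure col1a1a (-0.87 to -0.50), lamb2l (-0.49 to -0.25) and col14a1b at spot 12122 (-0.70 to -0.42) moved less. The near-zero differences of col14a1a at spots 15082 and 17659, mmp14a and mmp15b changed sign. No outlier test was run on groups of 3, so the low readings of mutant array 2 are a description. Brightness above the blank spots limits what can be seen in 12 of the 53 probes.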
